A study of Rattus norvegicus with 16 samples.

Results

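Capn2, Capns1, Cd63 and Gabarapl2 are 4 genes of cellular protein breakdown, here followed in rat extensor digitorum longus (EDL), which extends the toes and is made mostly of fast fibres. They were chosen with earlier results of these data known. Their probes were taken by the gene symbol that the array platform gives, and each of the 4 genes had 1 probe among the 1176 probes tested. Of those probes, 1106 carried 1 gene symbol, for 1096 genes. The muscle came from Brown-Norway rats aged 6 months. It was either EDL denervated for 2 months (8 arrays, rats 1 to 8) or innervated control EDL (8 arrays, rats 1 to 8). The labels used here do not say how the nerve was interrupted, nor whether a rat number marks the same animal in both groups, and each array was taken as 1 rat. Labelled cDNA was hybridised to a nylon membrane array, and the deposited values lie on a logarithmic scale. Its base was not found in the labels, so every difference is stated in log units, denervated minus control, and never as a fold change.

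Calpains are calcium-activated cysteine proteases of the cytoplasm that make limited cuts in their substrates, among them proteins that anchor the contractile filaments. Capn2 encodes the large, catalytic subunit of m-calpain. Capns1 encodes the small regulatory subunit that pairs with the large subunits of both classical calpains. Cd63 is a tetraspanin, a protein with several membrane passes, of late endosomes, lysosomes and exosomes. Gabarapl2, also called GATE-16, belongs to the ubiquitin-like Atg8 family, whose members are attached to lipid on the growing autophagosome. Calpain cleavage, autophagy with lysosomal digestion, and the proteasome are the main routes of protein breakdown in atrophying muscle.

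The genes lie on 4 different chromosomes. The RefSeq table of assembly GRCr8 places Capn2 at chr13:96681902-96732625, Capns1 at chr1:94572083-94582332, Cd63 at chr7:1909538-1924937 and Gabarapl2 at chr19:56819826-56830662. All 4 matched a RefSeq promoter window of 300 bases, with 250 bases before a transcription start and 50 after it. For Capn2 and Gabarapl2 that start is the outer end of the span given above, and for Capns1 it lies just inside the span. For Cd63, on the plus strand, the stretch shown (1921944-1922043) lies well inside the span, far from its first base at 1909538. The words found in Cd63 therefore stand before an internal start, not at the outer end of the gene. Stretches of these windows are shown because those of Capn2, Capns1 and Cd63 share a short word that the window of Gabarapl2 lacks. Capitals mark TGACTCA, the site known for AP-1 factors, and CACGTG, the core of the element bound by the lysosomal regulator TFEB, on either strand.

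Capn2 (chr13:96732606-96732635, minus strand, bases -10 to 20 from the start): tcgtccgctccTGACTCAtttgctgtttcc
Capns1 (chr1:94582222-94582321, minus strand, bases -100 to -1): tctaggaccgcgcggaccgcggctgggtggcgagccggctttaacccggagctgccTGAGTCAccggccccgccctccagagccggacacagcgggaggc
Cd63 (chr7:1921944-1922043, plus strand, bases -200 to -101): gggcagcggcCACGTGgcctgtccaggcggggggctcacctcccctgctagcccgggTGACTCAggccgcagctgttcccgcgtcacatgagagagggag
Gabarapl2 (chr19:56819726-56819825, plus strand, bases -100 to -1): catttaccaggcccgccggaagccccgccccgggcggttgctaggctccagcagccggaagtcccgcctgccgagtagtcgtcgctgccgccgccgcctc

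TGACTCA or its reverse complement TGAGTCA began at base 2 in Capn2, at -44 in Capns1 and at -143 in Cd63. Of all 33469 windows 4.63% held it, and of the 943 windows of genes measured here 5.62%. CACGTG began at -190 in Cd63 and stood in none of the other 3 windows, against 6.42% of all windows. CAGCTG, the E-box bound by myogenic factors, occurred in Cd63 at -131 alone, against 15.06% of all windows, and GTAAACA, the FOXO site, in none of the 4, against 3.78%. Both strands were searched, the marked words did not overlap, and the 4 words were chosen after the sequences and the expression values had been seen. The shared word is a description of these windows and was not tested against expression. The response of Gabarapl2 was not told apart from those of the other 3 genes, as given below.

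Control rat 6 stood apart, with a mean over all probes of 6.63 log units, against 8.19 to 8.31 for the remaining 15 arrays. Values are as deposited unless stated. The differences of the 4 genes are also given after centring every array on its own median and without that array. As deposited, 74 of 1176 probes passed at a Benjamini-Hochberg adjusted p under 0.05 in limma (6.29%), 64 of them higher in denervated muscle (5.44%) and 10 lower (0.85%). After centring 50 passed (4.25%), with 35 higher (2.98%) and 15 lower (1.28%). Quantile normalisation also gave 2.98% higher, omission of control rat 6 gave 4.08%, and an exact permutation of each probe gave 5.02%. The median difference over all probes was 0.22 as deposited and 0.01 after centring. None of the 4 genes stood at the lowest, repeated value of any array, so every array gave each gene a measured level. In whole muscle, fewer cells of a type and less RNA per cell cannot be told apart.

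Of the 4 genes, Capn2, Capns1 and Cd63 rose in denervated muscle as deposited, and Gabarapl2 did not pass. Of all probes 5.44% were called higher. This share stands beside the 4 genes and the gene lists as a description, since both were chosen with earlier results of these data known. Only Cd63 kept its call after centring.

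Capn2, the catalytic subunit of m-calpain, lay within a narrow band in denervated muscle and over a wide range in control muscle. Its lowest, median and highest values were 9.42, 9.70 and 9.93 log units on denervated arrays. On control arrays they were 5.75, 8.81 and 9.52. The lowest control values were those of rat 6 and of rat 1, at 7.13, and 7 of 8 control arrays lay below the lowest denervated array. The exception was control rat 7, so the groups overlapped. Capn2 averaged 9.68 ± 0.20 in denervated and 8.40 ± 1.31 in control muscle (SD, n = 8 each), a difference of 1.28 (SE 0.41, limma adjusted p = 0.0450). After centring the difference was 1.07 (adjusted p = 0.0636), and without control rat 6 it was 0.905 (adjusted p = 0.0862), so the call did not hold in either.

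Capns1, the small subunit shared by the classical calpains, showed the largest difference of the 4 genes as deposited. Its lowest, median and highest values were 10.92, 12.13 and 13.17 log units in denervated muscle, and 9.37, 10.13 and 12.32 in control muscle. All 8 denervated arrays lay above the control median, 3 lay above the highest control array, and 5 control arrays lay below the lowest denervated one. The high control arrays were those of rats 2, 3 and 4, at 12.32, 11.53 and 11.43. The means were 12.14 ± 0.83 and 10.57 ± 1.06 in denervated and control muscle (SD, n = 8 each), and the difference was 1.57 (SE 0.44, limma adjusted p = 0.0221). Centring gave 1.36 (adjusted p = 0.0684) and omission of control rat 6 gave 1.40 (adjusted p = 0.0470). The size of this difference depended most on the scaling, since quantile normalisation gave 0.63 (adjusted p = 0.182). By exact permutation of each probe its adjusted p was 0.0953.

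Cd63 separated the groups on all arrays. The lowest, median and highest values were 9.66, 10.22 and 10.67 log units in denervated muscle, against 7.25, 9.20 and 9.64 in control muscle. The closest arrays were denervated rat 2 at 9.66 and control rat 8 at 9.64. Such a separation, with every denervated array above every control array, was found for 14 of 1176 probes (1.19%) both as deposited and after centring, and Cd63 was among them each time. In either direction 1.28% of probes separated as deposited and 1.53% after centring. After centring its values were 1.46, 1.79 and 2.50 in denervated muscle and 0.27, 0.93 and 1.41 in control muscle. The groups overlapped after quantile normalisation, where 5 denervated arrays lay above the highest control array and 1.28% of probes separated with denervated arrays above.

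Cd63 averaged 10.18 ± 0.33 in denervated and 8.97 ± 0.73 in control muscle (SD, n = 8 each), a difference of 1.22 (SE 0.35, limma adjusted p = 0.0252). Centring gave 1.01 (adjusted p = 0.0312). Quantile normalisation gave 0.87 (adjusted p = 0.0250), and 0.97 remained without control rat 6 (adjusted p = 0.0243). The exact permutation gave an adjusted p of 0.0122. With centring and without control rat 6 together it was 0.93 (adjusted p = 0.0769).

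Gabarapl2, the Atg8-family protein, did not pass in limma. Its lowest, median and highest values were 6.73, 8.57 and 9.83 log units in denervated muscle, and 5.16, 8.09 and 9.20 in control muscle. The ranges overlapped over most of their length, with 6 of 8 denervated arrays above the control median. The means were 8.54 ± 0.99 in denervated and 7.81 ± 1.30 in control muscle (SD, n = 8 each). The difference was 0.73 (SE 0.48, limma adjusted p = 0.437), 0.52 after centring (adjusted p = 0.549) and 0.35 without control rat 6 (adjusted p = 0.714).

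**Figure D1:**
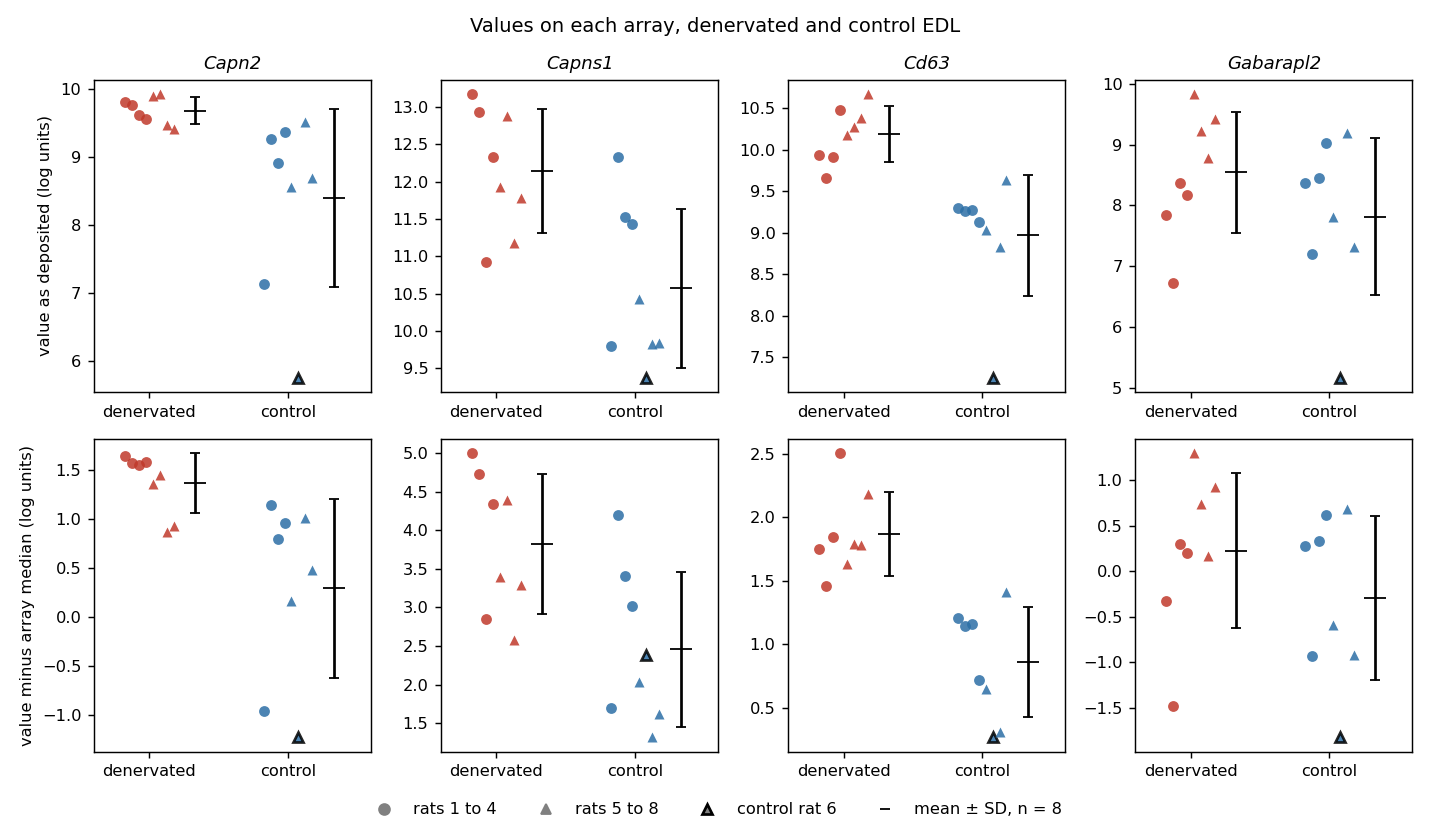
Value of each gene on each array, as deposited (top row) and after subtraction of the array median (bottom row), in log units, with denervated arrays left and control arrays right. Circles are rats 1 to 4, triangles rats 5 to 8, outlined triangles control rat 6, and bars the mean ± SD of 8 arrays; only Cd63 shows no overlap between groups in either row.

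**Figure D2:**
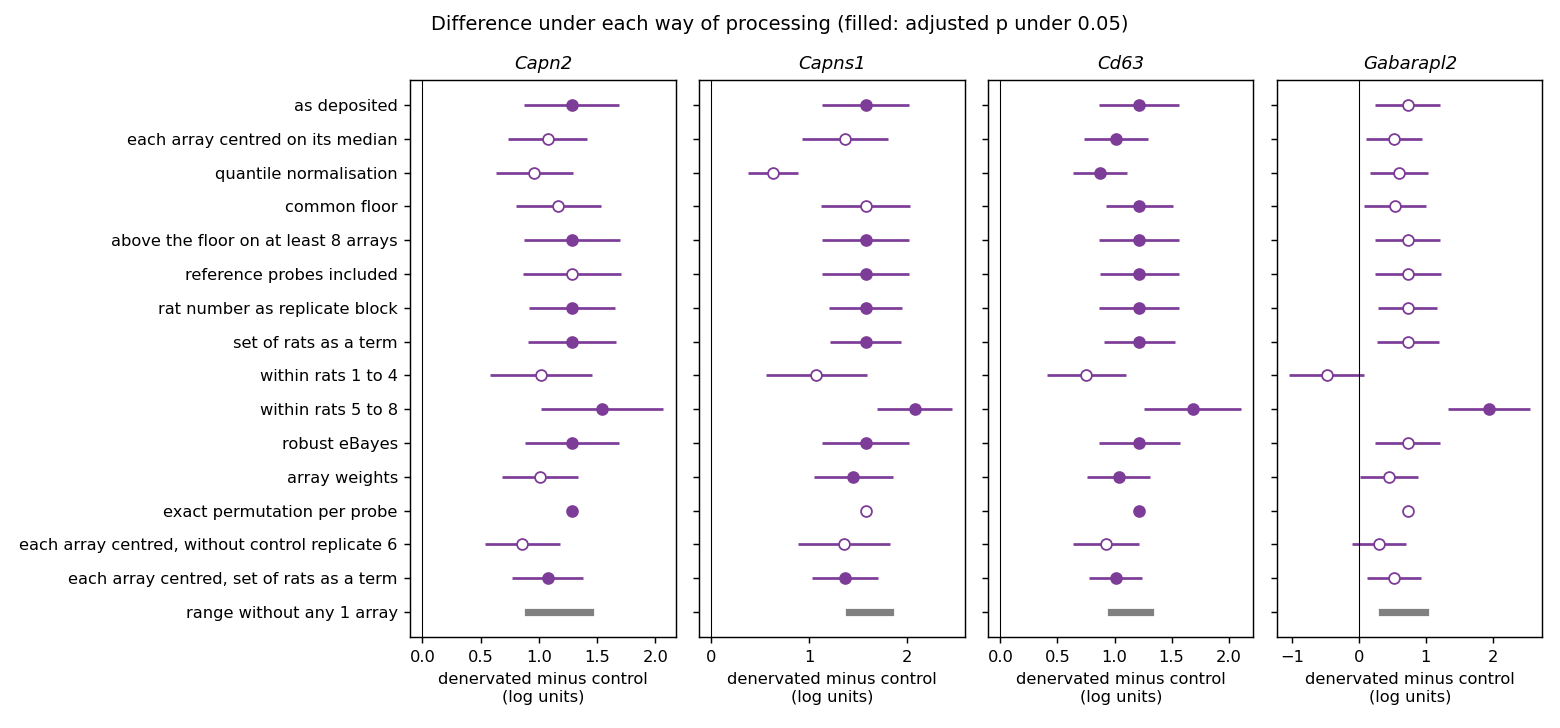
Difference between denervated and control muscle in log units (points) with its SE (bars) under each way of processing, filled where the adjusted p was under 0.05; the permutation has no SE, and the grey bar spans the 16 fits that leave out 1 array. Cd63 is filled in most settings, while Gabarapl2 is filled within rats 5 to 8 and lies below 0 within rats 1 to 4.

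Whether the 4 genes differed from each other in their response was tested on the difference of their values within each array, which a shift of the whole array leaves unchanged. The 6 pairs were compared by exact two-sided permutation of the 16 arrays. The widest gap as deposited was that of Capns1 over Gabarapl2, which was 3.60 ± 1.53 in denervated and 2.75 ± 1.43 in control muscle (SD, n = 8 each). That gap was 0.84 larger in denervated muscle (exact p = 0.273, adjusted p = 0.581 over 6 pairs). Capn2 and Cd63 differed least in response, by 0.07 (exact p = 0.865, adjusted p = 0.865). After quantile normalisation, added after seeing the data, the change in the gap of Capns1 over Gabarapl2 was 0.03 (exact p = 0.955, adjusted p = 0.955) and the widest was that of Capn2 over Gabarapl2 at 0.37 (exact p = 0.449, adjusted p = 0.863). No pair passed in either scaling, so the data do not separate the response of Gabarapl2 from those of the 3 genes that rose. Without control rat 6 the gap of Capns1 over Gabarapl2 was 1.05 larger in denervated muscle.

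The arrays of rats 1 to 4 and of rats 5 to 8 formed 2 sets that deviated differently from their group means, a split taken from rat numbers with earlier results known and named by no label. Within rats 1 to 4 the differences were 1.02 for Capn2, 1.07 for Capns1 and 0.75 for Cd63 (limma adjusted p = 0.335, 0.435 and 0.395, with 1.53% of probes called higher). Within rats 5 to 8, the set with the low control array, they were 1.55, 2.08 and 1.69 (adjusted p = 0.0422, 5.92e-05 and 0.00380, with 11.1% of probes called higher). Over all probes the median difference within the first set was -0.03 and within the second 0.55. After centring, the first set gave 1.10 for Capn2, 1.15 for Capns1 and 0.83 for Cd63, and the second set gave 1.05, 1.58 and 1.19.

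Gabarapl2 had opposite signs in the sets. In rats 1 to 4 it averaged 7.78 ± 0.73 in denervated and 8.26 ± 0.77 in control muscle (SD, n = 4 each), a difference of -0.48. In rats 5 to 8 it averaged 9.31 ± 0.44 in denervated and 7.37 ± 1.67 in control muscle (SD, n = 4 each), a difference of 1.94 (limma adjusted p = 0.0265 within that set). The difference between the sets was 2.42 (SE 0.88, limma unadjusted p = 0.00859) and did not pass over all probes (adjusted p = 0.195). After centring it was 1.84 (adjusted p = 0.460). The arrays of rats 5 to 8 read 9.83, 9.22, 8.77 and 9.41 log units in denervated muscle and 7.80, 5.16, 9.20 and 7.31 in control muscle, so control rat 6 was the lowest of them and control rat 7 lay within the denervated range. For Capn2, Capns1 and Cd63 the sets differed by 0.52, 1.01 and 0.93 (limma adjusted p = 0.775, 0.505 and 0.465).

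With set of rats as a term in the fit, Capn2 (adjusted p = 0.0174), Capns1 (adjusted p = 0.00147) and Cd63 (adjusted p = 0.00574) passed as deposited. They also passed in limma after centring with that term, a setting added after seeing the data (adjusted p = 0.0166, 0.00587 and 0.00362). There 91 of 1176 probes were called higher, against 35 after centring without the term. With the term 9.95% of all probes were called higher as deposited. Gabarapl2 did not pass with it (adjusted p = 0.368).

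**Figure D3:**
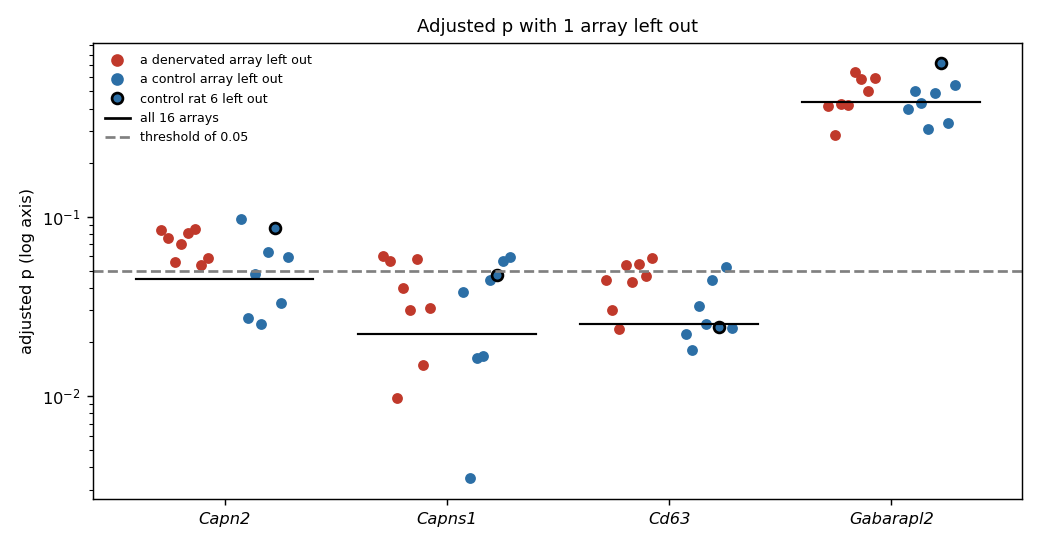
Adjusted p of each gene on a log axis when 1 of the 16 arrays is left out (points, red for a denervated and blue for a control array, outlined for control rat 6), with all arrays (black line) and the threshold of 0.05 (dashed line). Capn2 stays below the threshold in 4 of 16 fits, Capns1 in 11, Cd63 in 12 and Gabarapl2 in 0.

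The calls rested on single arrays to different degrees. When 1 array at a time was left out, Capn2 kept its call in 4 of 16 fits (limma adjusted p from 0.0251 to 0.0964). Capns1 kept it in 11 (0.00348 to 0.0601) and Cd63 in 12 (0.0180 to 0.0585). The difference stayed between 0.905 and 1.44 for Capn2, 1.40 and 1.82 for Capns1, and 0.97 and 1.31 for Cd63. Cd63 lost its call without denervated rat 4, 6 or 8 or control rat 7. Capns1 lost it without denervated rat 1, 2 or 6 or control rat 7 or 8, and Capn2 kept it without control rat 2, 3, 4 or 7.

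Of 12 listed genes of the calpain system 6 were measured. Capn2 and Capns1 rose and none fell as deposited, where 5.44% of all probes were called higher, and none of the 6 passed in limma after centring, where 2.98% were. The other 4 did not pass, and their differences lay close to the median of all probes. Capn3, the calpain typical of skeletal muscle, had lowest, median and highest values of 8.46, 10.01 and 10.42 log units in denervated muscle and 8.17, 9.72 and 10.46 in control muscle. It differed by 0.22 (SE 0.37, limma adjusted p = 0.832), and by 0.01 after centring. Capn9, a calpain of the digestive tract, differed by 0.32 (adjusted p = 0.714), and Capn8, another gut calpain, by 0.10 (adjusted p = 0.940). Capn6, a calpain that lacks the catalytic cysteine, differed by 0.05 (adjusted p = 0.977). After centring Capn6 and Capn8 stood at -0.16 and -0.10, and their sign is not settled. The list's median difference was 0.27 as deposited and 0.06 after centring, beside 0.22 and 0.01 over all probes.

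Of 56 listed lysosome genes 9 were measured, and Cd63 alone passed, both as deposited (6.29% of all probes called) and after centring (4.25%). Of the 9 differences 8 were positive as deposited, where 63.7% of all probes were, and 7 after centring, where 50.3% were. Scarb2, a lysosomal membrane protein that carries an acid hydrolase to the lysosome, came nearest. Its lowest, median and highest values were 9.73, 10.07 and 10.28 log units in denervated muscle and 7.74, 9.40 and 10.19 in control muscle. It differed by 1.02 (SE 0.37, limma adjusted p = 0.0995), and by 0.84 without control rat 6. Acp2, a lysosomal acid phosphatase, differed by 0.93 (adjusted p = 0.257). The list's median difference was 0.44 as deposited and 0.23 after centring, and the lowest was -0.80.

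Autophagy was represented by 1 of 30 listed genes, Gabarapl2 itself. Of 12 listed genes of the Golgi fusion machinery 3 were measured and none passed in limma. They were Napa, the NSF attachment protein alpha-SNAP, at 0.63 (adjusted p = 0.357), and the SNARE proteins Gosr2 at 0.50 (adjusted p = 0.579) and Bet1 at -0.004 (adjusted p = 0.996). The median of these 3 was 0.50 as deposited and 0.30 after centring. Of 70 listed genes of ubiquitin and the proteasome 2 were measured, the proteasome subunit Psmd1 at 0.29 (adjusted p = 0.797) and the ubiquitin-conjugating enzyme Ube2g1 at 0.19 (adjusted p = 0.884). Their median was 0.24 as deposited and 0.04 after centring.

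Among tetraspanins and their integrin partners 4 of 26 listed genes were measured, and Cd63 alone rose, beside 5.44% of all probes as deposited and 2.98% after centring. The other 3 had negative differences and did not pass, among them Itga7, a laminin-binding integrin of muscle, at -0.59 (limma adjusted p = 0.559), and Cd37, a leukocyte tetraspanin, at -0.16 (adjusted p = 0.869). The median of the 4 was -0.18 as deposited and -0.39 after centring. Of 20 protease inhibitors 1 was measured, Pzp, of the alpha-macroglobulin family, at 1.03 (adjusted p = 0.240).

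**Figure D4:**
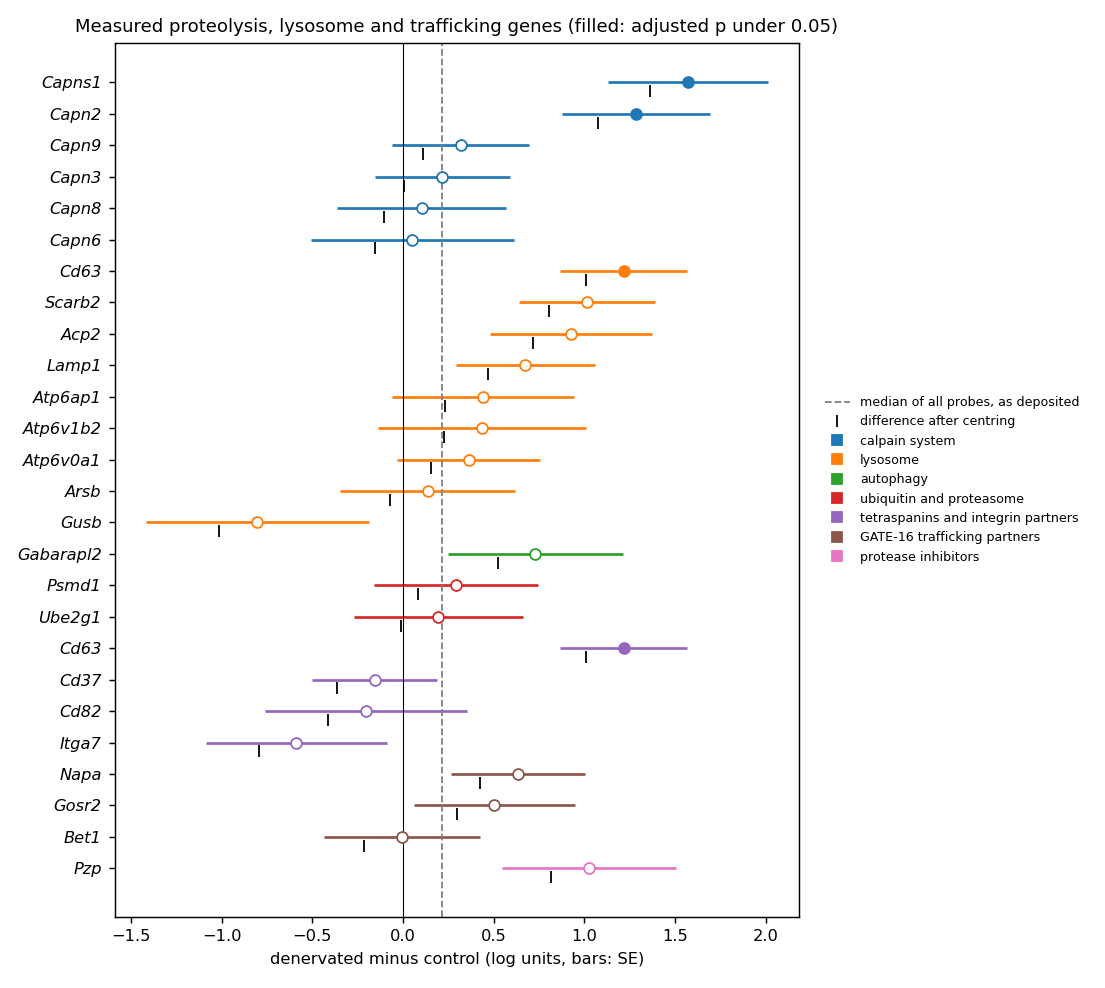
Difference between denervated and control muscle in log units (points) with its SE (bars) for the measured genes of the calpain, lysosome, autophagy, proteasome, tetraspanin, Golgi trafficking and inhibitor lists, filled where the adjusted p was under 0.05; black ticks are the differences after centring and the dashed line is the median of all probes. Capns1, Capn2 and Cd63 are the filled genes, and Cd63 appears in 2 lists.

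Among markers of other cells, calls as deposited fell in the fibroblast and matrix, the nerve and the adipocyte lists, beside 6.29% of all probes called. No macrophage, leukocyte, endothelial or smooth muscle marker passed in limma. Of 5 measured fibroblast and matrix markers, S100a4 rose by 2.88 (limma adjusted p = 5.06e-07), Bgn by 2.30 (adjusted p = 3.24e-05) and Dcn by 1.40 (adjusted p = 0.0318), and 2 of the 5 passed after centring. As deposited, the mean of the 5 lay between 10.72 and 11.61 log units on denervated arrays and between 7.96 and 10.46 on control arrays. After quantile normalisation S100a4 (2.23) and Bgn (1.84) passed in limma. Dcn (0.39, adjusted p = 0.180), Thy1 (0.40) and Sparc (0.09) did not. None of the 5 macrophage and leukocyte markers passed in limma, and their differences had both signs. Cd48 stood at 1.24 (adjusted p = 0.0688), C1qb at 0.95 (adjusted p = 0.138) and Aif1 at 0.80 (adjusted p = 0.312). Cd37 stood at -0.16 (adjusted p = 0.869) and Cxcl1 at -1.92 (adjusted p = 0.0550). Cxcl1 was at the lowest repeated value on 7 denervated and 4 control arrays. The mean of the 5, in which these signs offset each other, ranged from 7.98 to 8.99 on denervated and from 7.50 to 9.10 on control arrays. The Schwann cell and nerve list had 1 of 7 members that rose, the neurofilament Nefm by 1.38 (adjusted p = 0.0318). The list means were 7.28 to 8.27 on denervated and 5.59 to 8.15 on control arrays. The other neurofilaments did not pass, Nefl at 0.12 (adjusted p = 0.938) and Nefh at -0.47 (adjusted p = 0.685), nor did Gfap at -0.75 (adjusted p = 0.560). Of the 7 differences 5 were positive as deposited, where 63.7% of all probes were, and 4 after centring, where 50.3% were. Nefm differed by 1.17 after centring (adjusted p = 0.126), by 2.61 within rats 1 to 4 (adjusted p = 1.82e-04) and by 0.14 within rats 5 to 8 (adjusted p = 0.889).

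Scd, 1 of 2 adipocyte markers, rose by 2.97 (limma adjusted p = 3.24e-05). Its control level was not measured well, since 5 control arrays held Scd at their lowest repeated value. Giving every array the same floor lowered the Scd difference to 2.31 (limma adjusted p = 0.0040). The other adipocyte marker, Acly, did not pass, at 0.08 (limma adjusted p = 0.966) and at -0.13 after centring. The 2 measured markers of vessel wall cells (endothelium and smooth muscle) did not pass in limma. The adipocyte mean ranged from 6.52 to 9.22 on denervated and from 4.97 to 7.83 on control arrays, and the endothelial and smooth muscle mean from 6.68 to 9.72 on denervated and from 5.45 to 9.65 on control arrays. No marker in these lists was at the lowest repeated value on all arrays of a group, but some were on many. Gfap was there on 5 denervated and 7 control arrays, Myh11 on 2 and 5, and Tpm1 on 4 and 5. The differences of these genes, and the list means that hold them, are partly set by array floors. The part of these cells in the rises of Capn2, Capns1 and Cd63 was not tested. Of 6 measured skeletal muscle markers 1 changed as deposited and after centring, Mylk2, a muscle kinase that phosphorylates myosin light chains, which fell by 1.87 (adjusted p = 4.18e-04). Mylk2 differed by -2.67 within rats 1 to 4 (limma adjusted p = 1.39e-04) and by -1.07 within rats 5 to 8, where it did not pass (adjusted p = 0.084). The mean of the 6 lay between 9.92 and 11.02 on denervated and between 9.07 and 11.99 on control arrays. After quantile normalisation, where 2.3% of all probes were called lower, 3 of the 6 fell, Mylk2, Cacna1s at -0.79 (adjusted p = 0.00230) and Pgam2 at -0.93 (adjusted p = 0.0172).

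Across rats within a group, the 4 genes did not vary together in a way that passed. Correlations of centred values were computed for 6 pairs in each group, 12 relations in all, over 8 arrays each. The highest was that of Capn2 with Capns1 in denervated muscle (Pearson r = 0.70, exact permutation p = 0.0529, adjusted p = 0.635; Spearman rho = 0.76, exact p = 0.0368, adjusted p = 0.441). Without the 2 arrays farthest from the median of Capn2, r was 0.50 (exact p = 0.301). In control muscle the same pair had r = 0.39 (exact p = 0.339, adjusted p = 0.783). None of the 12 passed after adjustment, as deposited or centred.

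Genes whose values most resembled each of the 4 over all 16 centred arrays were taken from 995 other genes. These values are a description, since the arrays share the split into denervated and control muscle. Capns1 was followed most closely by Ddt, D-dopachrome tautomerase (r = 0.95), the ribosomal protein gene Rpl32 (r = 0.92) and Myh6, a cardiac myosin heavy chain (r = 0.90). With group means removed these correlations were 0.92, 0.88 and 0.87. Ddt rose by 1.10 (limma adjusted p = 0.0438) and Rpl32 by 1.62 (adjusted p = 0.00427), and Myh6 differed by 1.22 (adjusted p = 0.300). After centring Ddt did not pass (0.90, adjusted p = 0.0790), and its call was lost in 15 of 30 alternatives, while Rpl32 passed (1.42, adjusted p = 0.0133).

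The genes most like Capn2 were Emb, a membrane protein of the immunoglobulin family (r = 0.87), Zfp386 (r = 0.86) and the inhibitor Pzp (r = 0.83). Cd63 was most like Sncg, gamma-synuclein (r = 0.89), the glutathione transferase Gsta1 (r = 0.87) and the elongation factor Eef1a1 (r = 0.85). With group means removed the value for Eef1a1 was 0.42. Gabarapl2 had 1 gene above 0.80, Cdon, a cell surface protein of myogenic cells (r = 0.82), before Ms4a2 (r = 0.69) and Proc (r = 0.69).

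**Figure D5:**
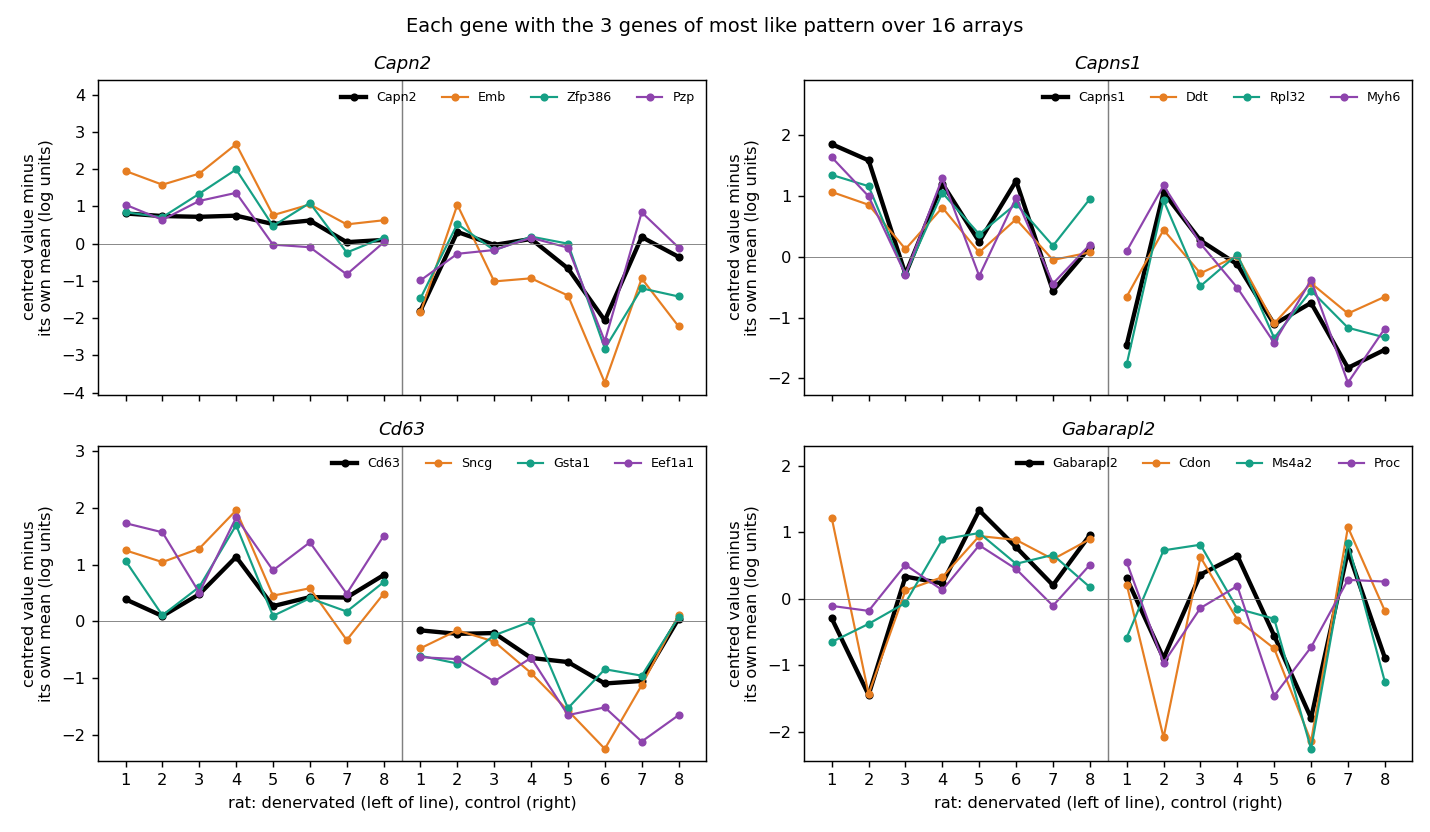
Centred value of each gene minus its own mean over 16 arrays, in log units (black), with the 3 genes of most like pattern (colours), for denervated rats left and control rats right of the vertical line; lines only join the points of a gene. The black and coloured points of Capns1 move together within both groups, while those of Cd63 and Eef1a1 share mainly the step between groups.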

How the data were processed

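Per the labels, a phosphorimager scanned the membranes, Array Vision measured the spots and a linear regression served as normalisation. The authors deposited 1 score per probe and array, on a logarithmic scale as the values show. Neither log base, centring nor background correction is stated in those labels. Of 1185 probes, 9 reference probes on another scale were left out. The members and gene lists were chosen with earlier results of these data known. Values were used as deposited and fitted over 1176 probes with limma 3.58.1 in R 4.3.3 (lmFit, eBayes with trend, two-sided, Benjamini-Hochberg over all probes, threshold 0.05). At most 0.085% of values were identical between any 2 arrays. Platform symbols were updated through gene IDs. A gene with several probes took the one with the highest mean. Named genes were the 4 members, the other measured calpain and autophagy genes, and the called genes and 3 lowest adjusted p of each other pathway list. The 3 most alike genes per member, among those at their array's lowest value on at most 4 arrays, were also named. All cell type and muscle markers, called or not, were named after their values were seen. The procedure was tested on simulated data. p-values measure the spread between arrays, whose number limits precision. Cross-hybridisation with related transcripts was not tested. Alternatives were other scalings, floors, filters, blocks, variance models, an exact permutation and leaving out arrays. Figures used matplotlib 3.10.9.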

Additional observations from a re-analysis of the deposited data

Results flagged for a closer look

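Cd63 on the array of control rat 6 had a value of 7.25 log units, far below the other 7 control arrays. Its gap to the next array was 0.66 of the range of the control group, above the Dixon critical value for 8 samples. After centring the same array was not set apart. The 4 genes were examined in both groups, as deposited and centred, which makes 16 groups of 8 values, of which chance alone sets apart about 1 in 20.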

How the results depend on the processing

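Capn2, Capns1 and Cd63 were higher in denervated muscle under every alternative run, while their calls changed. Capn2 did not pass after centring (1.07), quantile normalisation (0.96), with a common floor (1.17), with reference probes (1.28, adjusted p = 0.0606), with array weights (1.01, adjusted p just above the threshold), or within rats 1 to 4 (1.02). Capns1 did not pass after centring (1.36), quantile normalisation (0.63), with a common floor (1.57, adjusted p = 0.0544), by exact permutation (1.57) or within rats 1 to 4 (1.07). Cd63 did not pass within rats 1 to 4 (0.75). With centring and control rat 6 left out, added after seeing the data, Capn2 (0.86), Capns1 (1.35) and Cd63 (0.93) all did not pass. Gabarapl2 reversed within rats 1 to 4 (-0.48) and passed within rats 5 to 8 (1.94). Without 1 array the ranges were 0.905 to 1.44 for Capn2, 1.40 to 1.82 for Capns1, 0.97 to 1.31 for Cd63 and 0.35 to 0.99 for Gabarapl2. The causes were not tested. The count of called probes, 74 as deposited, was 113 with rat number as replicate block (96 higher), 131 with set of rats as a term, 117 with that term after centring, 30 within rats 1 to 4, 139 within rats 5 to 8, 43 with centring and no control rat 6, and 43 to 98 without 1 array (43 to 49 without denervated rat 1 or 6 or control rat 5, 7 or 8). The higher share was 86.5% as deposited, 70.0% after centring and 56.5% after quantile normalisation. With the replicate block limma's adjusted p was 0.00991 for Capn2, 7.91e-04 for Capns1, 0.00991 for Cd63 and 0.330 for Gabarapl2. Same-numbered arrays deviated together with r from 0.06 to 0.19. The mean r of an array with other numbers ran from -0.02 to 0.16 within its set and from -0.17 to -0.03 in the other set. In 3 of 8 rats the own number gave the highest r, so a shared animal and a shared set are not told apart.

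Some uncalled genes changed sign. After centring these were Capn6 (-0.16), Capn8 (-0.10) and Ube2g1 (-0.0134), also with the set term; after quantile normalisation Capn3 (-0.0883), Capn6 (-0.15) and Capn8 (-0.36); with a common floor Bet1 (0.0568); with array weights Capn6 (-0.0795). Within rats 1 to 4 they were Capn3 (-0.65), Capn9 (-0.22), Psmd1 (-0.46), Ube2g1 (-1.001) and Ms4a2 (-0.33), and within rats 5 to 8 Capn6 (-0.28), Capn8 (-0.38), Cd37 (0.20) and Bet1 (0.38). With centring and no control rat 6 they were Capn3 (-0.0287), Capn6 (-0.23) and Capn8 (-0.15). Without 1 array Capn6 ranged from -0.18 to 0.33, Capn8 from -0.26 to 0.30, Bet1 from -0.21 to 0.30 and Psmd1 from -0.0878 to 0.50. No member correlation passed as deposited or without the 2 farthest arrays.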

Other observations

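Capn2 had a smaller spread in denervated than in control muscle. Its SD over 8 rats was 0.20 log units in denervated and 1.31 in control muscle, and only 4 of the 1176 probes had a smaller SD on denervated arrays, while 969 had a smaller SD on control arrays. After centring the SDs were 0.30 in denervated and 0.92 in control muscle, and 25 and 664 probes had smaller ones. Control rat 6 held much of the control spread, and without it the control SD was 0.81 as deposited and 0.73 after centring. The median SD of a probe was 0.77 in denervated and 0.99 in control muscle. These values were looked at after the data were seen and were not tested.

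Scarb2, the other lysosomal membrane protein near the threshold, passed in limma with rat number as a block (adjusted p = 0.0450), with set of rats as a term (adjusted p = 0.0277) and with that term after centring (adjusted p = 0.0452). It also passed within rats 5 to 8 (1.66, adjusted p = 0.00939) and without control rat 2 (adjusted p = 0.0427) or control rat 4 (adjusted p = 0.0379). It did not pass in the other alternatives run.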
